A study of Mus musculus with 40 samples.

Results

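The transcription factor genes of dorsal neural development Zic1, Zic2, Zic4, Zic5, Msx1, Msx2, Barhl1, Barhl2, Pou4f1 and Pou4f2, were followed through the histone peaks at their promoters. They are 10 of 55450 annotated mouse genes and were taken by name, all 10 being found. A promoter was taken as 2000 bp before and 1000 bp after an annotated transcript start, and the windows of a gene were joined where they met. The cells were oligodendrocyte precursor cells (OPCs), the progenitors of myelinating cells, cultured from the brainstem or the dorsal telencephalon (cortex, corpus callosum and hippocampus) of mice at postnatal days 5 to 7. K27M cultures came from mice in which a Cre driven by a human GFAP promoter, active in neural progenitors, removes a stop cassette and lets the endogenous H3-3a gene make histone H3.3 with methionine in place of lysine 27, a change found in diffuse midline glioma. Control cultures came from littermates. All cultures were selected with an antibody to PDGFRa and kept undifferentiated in proliferation medium, and the tissue of several animals was pooled by region and genotype, so a culture is a pool and not an animal. Peak lists for H3K27me3 and H3K4me3 were available for brainstem cultures 59 and 61 and telencephalon cultures 59, 60 and 61 of each genotype, which gave 10 libraries per mark and 5 matched pairs of one region and culture number.

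H3K27me3 is written by Polycomb complex 2 and marks genes held silent in a lineage, whereas H3K4me3 marks promoters that are active or poised. A promoter that carries both is called bivalent, and genes of other lineages are often kept in that state in progenitors. Zic proteins are zinc finger factors of the dorsal neural tube, neural crest and cerebellum, Msx proteins are homeodomain factors of the roof plate and neural crest that act downstream of BMP signals, Barhl proteins are homeodomain factors of dorsal interneurons and cerebellar granule cells, and Pou4f proteins (Brn3) specify sensory neurons and retinal ganglion cells.

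The members fell into 2 kinds. At Msx1, Msx2, Barhl1, Barhl2, Pou4f1 and Pou4f2 an H3K27me3 peak lay on the promoter in all 10 libraries, K27M included. At the Zic genes the same mark was present or absent from library to library, and Zic1 and Zic4 carried it in all 6 telencephalon libraries but in neither K27M brainstem culture. The paired comparison of genotypes and the comparison of regions could not reach a p under 0.05, since 5 pairs allow an exact two-sided p of 0.063 at the smallest and 2 against 3 cultures allow 0.1.

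The RefSeq promoters (build GRCm38.p6, 250 bases before to 50 after the start) were found for 9 of the 10 members, Zic2 being the one without an entry. CpG-dense promoters are the usual sites of both marks. The following 4 are shown because they carry the H3K27me3 peaks described first below. The Pou4f promoters are also shown for their H3K4me3 peaks, which were shorter or absent in K27M in every matched pair. Each of the 4 is the strand of the gene, 5′ to 3′, upstream of its start and outside annotated exons, with every CpG in capitals.
Zic1, chr9:91365811-91366018, minus strand: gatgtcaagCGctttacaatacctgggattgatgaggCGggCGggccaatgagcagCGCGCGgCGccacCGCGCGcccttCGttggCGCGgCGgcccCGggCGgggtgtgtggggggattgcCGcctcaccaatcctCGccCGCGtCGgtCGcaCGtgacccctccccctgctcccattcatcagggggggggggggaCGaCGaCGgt
Barhl2, chr5:106458167-106458416, minus strand: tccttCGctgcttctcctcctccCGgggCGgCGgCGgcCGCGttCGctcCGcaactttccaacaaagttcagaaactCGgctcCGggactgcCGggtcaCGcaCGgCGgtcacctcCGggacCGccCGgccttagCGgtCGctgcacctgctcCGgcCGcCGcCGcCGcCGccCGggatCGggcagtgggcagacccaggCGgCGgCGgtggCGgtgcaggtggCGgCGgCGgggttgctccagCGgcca
Pou4f1, chr14:104468000-104468249, minus strand: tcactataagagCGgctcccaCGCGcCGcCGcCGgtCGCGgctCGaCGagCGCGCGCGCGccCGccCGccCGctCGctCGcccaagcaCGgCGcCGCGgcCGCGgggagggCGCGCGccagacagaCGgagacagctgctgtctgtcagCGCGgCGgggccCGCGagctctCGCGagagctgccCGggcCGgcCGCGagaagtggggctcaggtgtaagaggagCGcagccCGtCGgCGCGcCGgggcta
Pou4f2, chr8:78436648-78436897, minus strand: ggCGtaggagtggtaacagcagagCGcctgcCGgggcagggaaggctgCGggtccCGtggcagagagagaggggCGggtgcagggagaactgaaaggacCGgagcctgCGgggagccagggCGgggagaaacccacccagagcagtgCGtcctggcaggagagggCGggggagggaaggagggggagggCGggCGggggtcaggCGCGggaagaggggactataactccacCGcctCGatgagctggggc
Over the whole 300 bp, Pou4f1 held 57 CpG, Barhl2 42, Zic1 31, Msx1 29, Msx2 22, Pou4f2 18, Zic5 15, Barhl1 9 at the start of the gene and Zic4 8, against a median of 7 over 32851 promoters. GGGCGG, the core of a GC box, was found on either strand in 7 of the 9 (all but Zic4 and Barhl1), and in 35.7% of all promoters. CCAAT was found at Zic1, Msx1 and Msx2 and in 37.4% of all promoters, TAATTG, a homeodomain core, at Barhl1 and in 8% of all promoters, and TATAAA at none of the 9 and in 13.6% of all promoters. These are letter matches and not shown to be binding sites.

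The libraries differed in how much they held. The H3K27me3 lists of the controls had 12715 to 64808 peaks over 26.5 to 152 Mb, and those of K27M had 4739 to 15753 peaks over 13.3 to 41.4 Mb. The H3K4me3 lists had 20961 to 31200 peaks. Telencephalon control 59 had the lowest median H3K4me3 fold enrichment (3.57) and telencephalon controls 60 and 61 the highest (13.8 and 10.1). The library labelled brainstem control 59 stood apart from the other brainstem libraries at Zic1 and Zic4, and the values that rest on it are marked where they are given. The fold enrichment is over the input and was not put on a common scale between libraries. As a check of the cells, all 6 OPC marker genes had an H3K4me3 promoter peak in all 10 libraries, and 5 of the 6 had no H3K27me3 peak in any. H3K4me3 was present in all 10 libraries at 1 of 4 mature oligodendrocyte, 1 of 4 astrocyte, 3 of 4 neuron, 3 of 5 cerebellar granule cell, 0 of 5 microglia, 1 of 4 endothelial and 2 of 6 fibroblast marker genes.

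**Figure D1:**
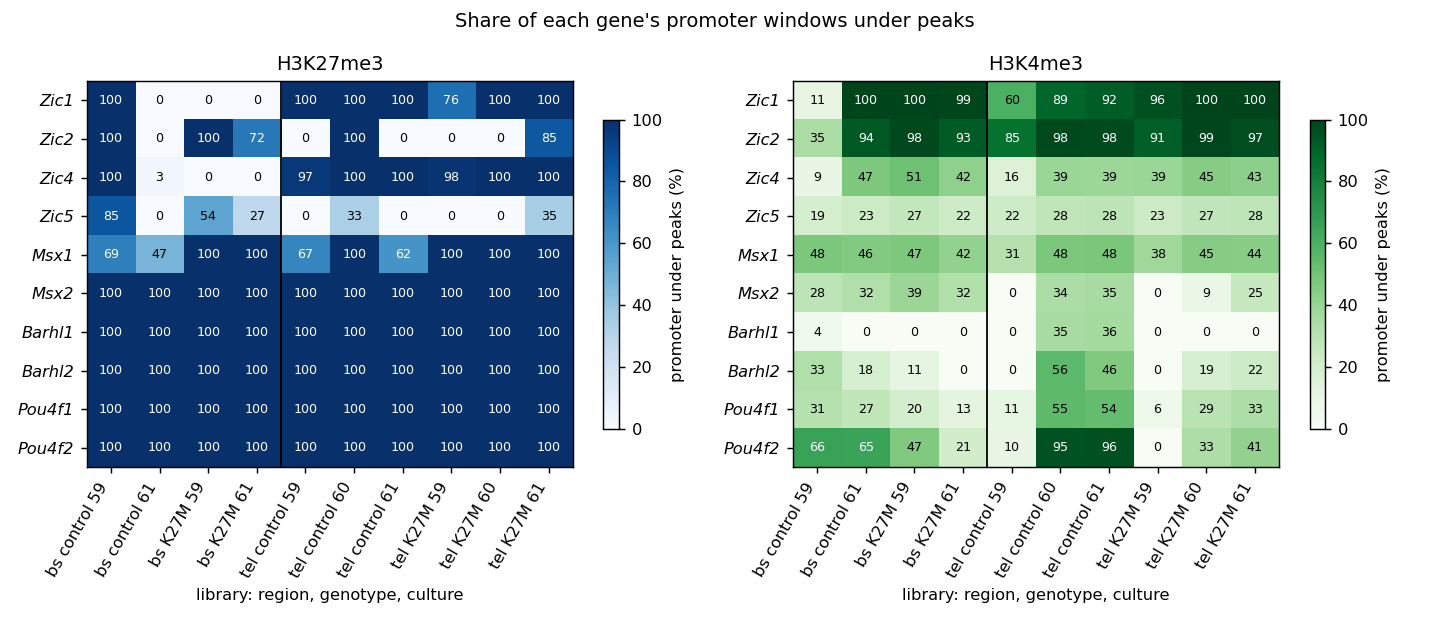
Percent of each gene's promoter windows under H3K27me3 peaks (left, blue) and H3K4me3 peaks (right, green) in each of 10 libraries, with bs for brainstem, tel for telencephalon and the number naming the culture; the black line divides the regions. H3K27me3 covered the whole promoter of Msx2, Barhl1, Barhl2, Pou4f1 and Pou4f2 in all 10 libraries, and the Zic genes were covered in some libraries only.

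Zic1 and Zic4 lie head to head on chromosome 9. Zic1 (ENSMUSG00000032368.14, 9:91358058-91365810, minus strand) and Zic4 (ENSMUSG00000036972.14, 9:91362413-91389348, plus strand) overlap in the annotation, with gene starts 3397 bp apart, so one peak can cover both promoters and their values are not independent. H3K27me3 covered 100% of the Zic1 promoter in brainstem control 59 and 0% in brainstem control 61. Both brainstem K27M cultures were at 0%. In the telencephalon, the 3 controls were at 100%, and K27M cultures 59, 60 and 61 were at 75.9, 100 and 100%. The brainstem libraries other than control 59 were thus free of a peak on the promoter, and every telencephalon library carried one. In brainstem control 61 and the 2 brainstem K27M cultures the nearest H3K27me3 peak to the Zic1 start was 10.9, 14.5 and 14.6 kb away.

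Zic4 gave the same picture. Its H3K27me3 promoter coverage was 100 and 3.42% in brainstem controls 59 and 61 and 0% in both brainstem K27M cultures, against 96.6, 100 and 100% in telencephalon controls and 98.0, 100 and 100% in telencephalon K27M cultures. Between the K27M cultures, the telencephalon lay above the brainstem without overlap for Zic1 and Zic4 alone of the 10, with a mean difference of 92.0 percentage points for Zic1 and 99.3 for Zic4 (exact permutation test, two-sided p = 0.1 each, the smallest that 3 against 2 cultures allow, adjusted p = 1 over 4811 genes). Of all genes tested, 2.16% lay above in the telencephalon in this way and 11.2% below. Among controls the regions overlapped at every member because of brainstem control 59 at Zic1 and Zic4, and 0.879% of all genes lay above in the telencephalon and 2.45% below. With that library left out, an alternative added after the data were seen, only control 61 remained in the brainstem. It lay below every telencephalon control at Zic1, Zic4 and Msx1. A single culture meets that rule more easily than 2, and the share of all genes that did was not counted.

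Brainstem control 59 stood apart at these genes. Of 23 genes with an H3K27me3 promoter peak in all 6 telencephalon libraries and in no other brainstem library, 10, or 43.5%, had one in brainstem control 59, Zic1 being one. In the reverse comparison, 4 of 14 genes (28.6%) with a peak in all 3 other brainstem libraries and no telencephalon library lacked it there. A peak in brainstem control 59 and in no other brainstem library was found at 8.53% of all genes, and this library had the second longest H3K27me3 coverage of all, at 102 Mb. At Zic1 its merged peak ran for 114.664 kb. In H3K27me3 promoter coverage, brainstem control 59 was thus like the telencephalon libraries at Zic1 and Zic4 and unlike the other 3 brainstem libraries. Its H3K4me3 coverage there, 11.1 and 9.09%, was below that of every telencephalon library, of which the lowest had 59.8 and 15.7%. Whether the label of brainstem control 59 is right was not tested.

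**Figure D2:**
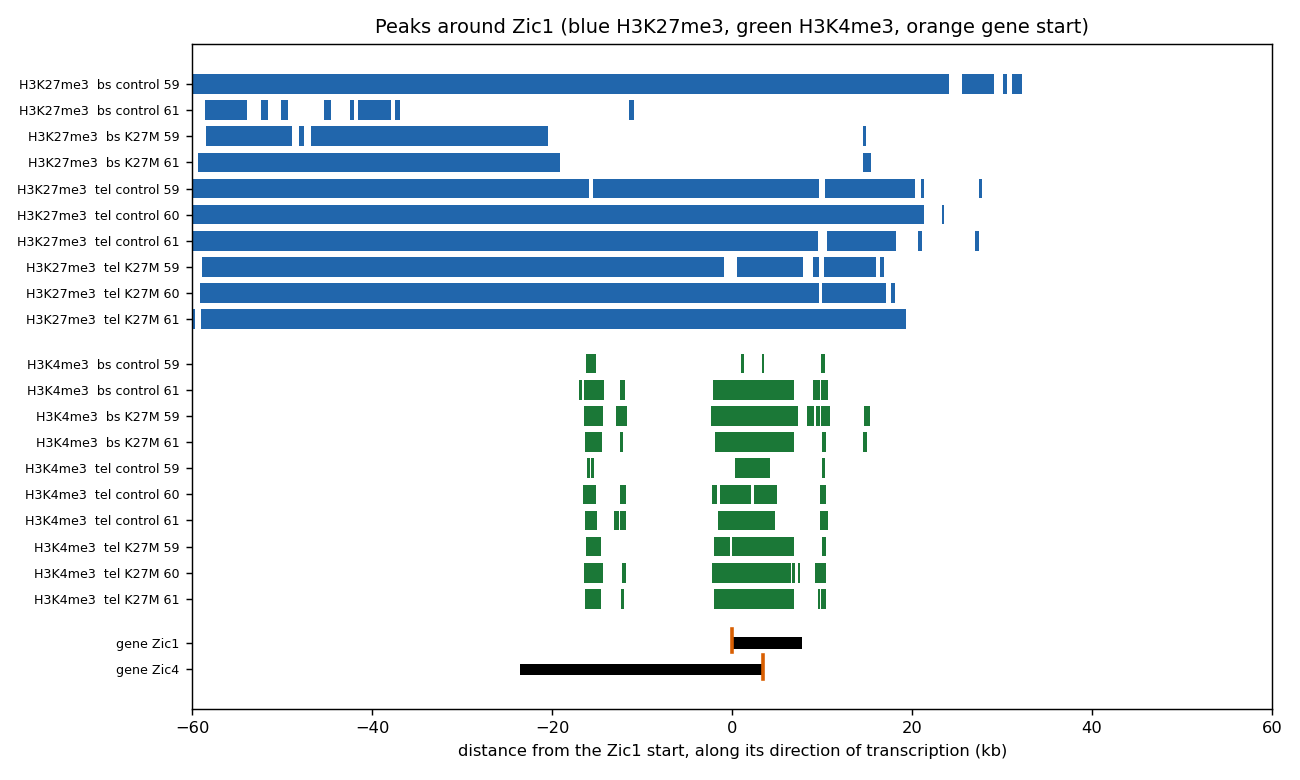
Merged H3K27me3 peaks (blue) and H3K4me3 peaks (green) of 20 libraries by distance from the Zic1 start in kb, along the direction of transcription, with the annotated genes in black and their starts in orange. H3K27me3 spans the start in brainstem control 59 and in 5 of 6 telencephalon libraries, the start lying in a gap between peaks in telencephalon K27M 59. An H3K4me3 peak block covers the start in the other 3 brainstem libraries and in every telencephalon library but control 59.

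Around Zic1 the H3K27me3 domain was broad. Of the 100 kb centred on the Zic1 start, peaks covered 69.8, 71.7 and 68.2 kb in telencephalon controls 59, 60 and 61 and 63.5, 67.0 and 69.4 kb in the matched K27M cultures. The telencephalon domain was therefore of similar extent in both genotypes. In the brainstem, controls 59 and 61 had 79.2 and 6.64 kb, and K27M cultures 59 and 61 had 28.3 and 31.7 kb, so K27M was lower in one pair and higher in the other. The mean difference over 5 pairs was -7.12 kb ± 27.5 (SD; exact sign-flip p = 0.625). It became 7.20 kb without culture 59 and 3.82 kb without brainstem control 59, so its sign rests on that library. In brainstem K27M cultures 59 and 61 the upstream domain ended 20.5 and 19.1 kb before the start, as the map of Zic1 shows.

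H3K4me3 lay over much of the Zic1 promoter in every library but brainstem control 59. It covered 11.1% of the promoter in brainstem control 59 and 100% in brainstem control 61, and 100 and 99.2% in the brainstem K27M cultures. In the telencephalon it covered 59.8, 89.1 and 91.9% in controls and 96.0, 100 and 100% in K27M cultures. The one brainstem library with H3K27me3 over the promoter was also the library with the shortest H3K4me3. In the telencephalon, every library had both marks on the promoter. K27M was higher in 4 of 5 pairs by a mean of 28.7 percentage points ± 36.4 (SD; exact sign-flip p = 0.125). The brainstem 59 pair differed by 88.9 points, and without brainstem control 59 the mean was 13.6. At Zic4 the values were 9.09 and 47.5% in brainstem controls, 51.3 and 42.3% in brainstem K27M, 15.7, 39.3 and 38.6% in telencephalon controls and 39.3, 44.9 and 43.1% in telencephalon K27M. The mean difference there was 14.1 points, and 7.14 without brainstem control 59.

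Zic2 and Zic5 form the second Zic pair, on chromosome 14. Zic2 (ENSMUSG00000061524.8, 14:122475435-122479852, plus strand) and Zic5 (ENSMUSG00000041703.7, 14:122456795-122465677, minus strand) start 9758 bp apart. H3K27me3 covered 100 and 0% of the Zic2 promoter in brainstem controls 59 and 61 and 100 and 72.0% in the brainstem K27M cultures. It covered 0, 100 and 0% in telencephalon controls 59, 60 and 61 and 0, 0 and 84.6% in the matched K27M cultures. Only the brainstem K27M cultures thus all carried the mark, and the other 3 groups held cultures with and without it. Zic5 followed it, with 85.5 and 0% in brainstem controls, 54.2 and 26.8% in brainstem K27M, 0, 33.4 and 0% in telencephalon controls and 0, 0 and 34.8% in telencephalon K27M. The mean difference between genotypes was 11.3 percentage points ± 73.6 (SD) at Zic2 and -0.62 ± 31.7 at Zic5 (exact sign-flip p = 1 each). No effect of K27M could be told from the spread between cultures at either gene.

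H3K4me3 at Zic2 was long in every library but one. It covered 34.7 and 93.7% of the promoter in brainstem controls 59 and 61, 98.4 and 92.8% in brainstem K27M, 84.8, 98.1 and 97.8% in telencephalon controls and 91.5, 98.9 and 96.7% in telencephalon K27M. Over the 100 kb around each start, H3K4me3 was higher in K27M in all 5 pairs at Zic2 and Zic5, by a mean of 5.37 kb ± 2.85 (SD; exact sign-flip p = 0.063). Both genes have the same value because the same peaks lie in both windows. Of all genes tested, 3.72% were higher in every pair, and 66% had a higher mean in K27M. The peaks reaching the Zic2 promoter themselves were longer in K27M in every pair, by 3.48 kb ± 2.30 (SD; exact sign-flip p = 0.063), as were those of 5.72% of all genes. With equal numbers of peaks per library, neither Zic2 nor Zic5 was higher around its start in every pair.

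The Msx genes kept H3K27me3 in every library. Msx1 (ENSMUSG00000048450.10, 5:37820485-37824583, minus strand) was covered over 69.1 and 47.0% of its promoter in brainstem controls and 100% in both brainstem K27M cultures. Telencephalon controls 59, 60 and 61 were at 67.2, 100 and 61.6% and the matched K27M cultures at 100%. The mark therefore reached farther over the Msx1 promoter in K27M in 4 of 5 pairs and equally in the other, by a mean of 31.0 percentage points ± 19.4 (SD; exact sign-flip p = 0.125). In the 4 controls that fell short, the gene start lay 0.115 to 0.592 kb from the nearest peak. Msx2 (ENSMUSG00000021469.9, 13:53466884-53473074, minus strand) was covered in full in all 10 libraries.

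Around these genes the peaks together covered less in K27M. At Msx1, H3K27me3 covered 58.9 and 32.2 kb of the 100 kb around the start in brainstem controls and 25.8 and 24.3 kb in brainstem K27M, and 27.4, 62.5 and 47.8 kb in telencephalon controls against 18.9, 27.6 and 28.3 kb in telencephalon K27M. Each K27M culture was below its matched control, and the lowest controls overlapped the K27M values. The mean difference was -20.8 kb ± 13.0 (SD; exact sign-flip p = 0.063). At Msx2 the values were 52.2 and 22.9 kb in brainstem controls, 17.9 and 18.2 kb in brainstem K27M, 22.8, 42.6 and 67.2 kb in telencephalon controls and 20.7, 25.9 and 25.9 kb in telencephalon K27M, a mean difference of -19.8 kb ± 17.5 (exact sign-flip p = 0.063). Most of what differed lay away from the promoter. The peaks that reach the Msx1 promoter differed by -0.970 kb ± 8.44 (SD), and the rest of the Msx1 window by -19.8 kb ± 8.32, lower in all 5 pairs.

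The Barhl promoters lay under broad H3K27me3 peaks in every library. Barhl2 (ENSMUSG00000034384.11, 5:106452523-106458166, minus strand) lay inside an H3K27me3 peak of 39.6 and 49.2 kb in brainstem controls 59 and 61 and of 46.3, 53.3 and 58.3 kb in telencephalon controls. In the K27M cultures this peak measured 47.3 and 46.4 kb in the brainstem and 46.2, 49.5 and 46.3 kb in the telencephalon. The K27M peaks thus spanned a narrow range of lengths, and the controls varied more widely around it. Outside the peak, controls had 12.1, 11.1, 3.27, 12.6 and 13.7 kb more in the window, and K27M cultures 0 to 0.911 kb. That remainder was lower in K27M in every pair, with a mean difference of -10.3 kb ± 4.06 (SD; exact sign-flip p = 0.063). Across all genes tested 25.2% had less coverage of this kind in K27M in every pair, and 4 of the 10 members did, namely Msx1, Msx2, Barhl2 and Pou4f2.

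**Figure D3:**
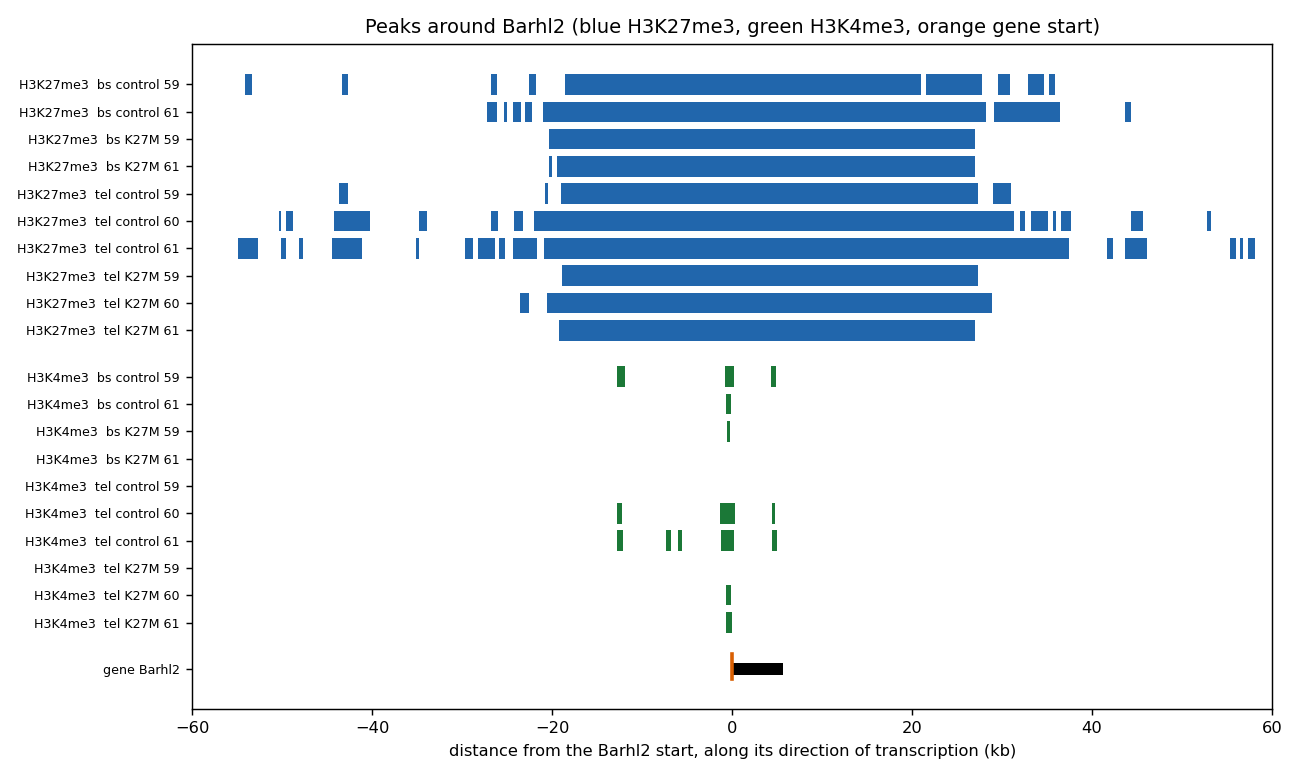
Merged H3K27me3 peaks (blue) and H3K4me3 peaks (green) of 20 libraries by distance from the Barhl2 start in kb, along the direction of transcription, with the gene in black and its start in orange. A central H3K27me3 domain is present in all 10 libraries, and the smaller peaks beside it appear in the 5 controls and in only 2 of the 5 K27M cultures.

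Barhl1 (ENSMUSG00000026805.14, 2:28907679-28916668, minus strand) lay inside a peak of 15.6 to 19.0 kb in the 5 controls and of 15.1 to 16.7 kb in the 5 K27M cultures. It was shorter in K27M in each pair, with a mean difference of -1.42 kb ± 0.912 (SD; exact sign-flip p = 0.063), which was found for 13.2% of all genes tested and for Barhl1 alone of the 10. Over the 100 kb around the start, the controls had 35, 19.6, 15.6, 34.1 and 36.3 kb (brainstem 59 and 61, telencephalon 59, 60 and 61), and the K27M cultures 16.8, 16.0, 15.1, 16.7 and 16.1 kb. Telencephalon control 59, with the fewest peaks of the controls, was close to the K27M values. The mean difference was -12.0 kb ± 9.16 (SD; exact sign-flip p = 0.063). A lincRNA, Gm26872, shared the Barhl2 peak in all 5 controls and all 5 K27M cultures, with starts 12.841 kb apart.

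The Pou4f genes, which specify sensory neurons, had the smallest differences in extent. Around Pou4f1 (ENSMUSG00000048349.9, 14:104461676-104467999, minus strand) H3K27me3 covered 28.5, 29.7, 28.6, 30.0 and 27.2 kb in the controls (same order) and 27.5, 25.4, 25, 26.4 and 25.8 kb in K27M, a mean difference of -2.79 kb ± 1.52 (SD). Around Pou4f2 (ENSMUSG00000031688.4, 8:78433010-78436645, minus strand) it covered 31.7, 26.0, 25.4, 28.2 and 29.6 kb in controls and 24.7, 24.6, 22.8, 26.4 and 25.2 kb in K27M, a mean difference of -3.47 kb ± 2.34 (SD). Each K27M culture was below its matched control at both genes (exact sign-flip p = 0.063 each). Another lincRNA, D130079A08Rik, lay under the Pou4f1 peak in all 5 controls and all 5 K27M cultures, its start 8.663 kb away.

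**Figure D4:**
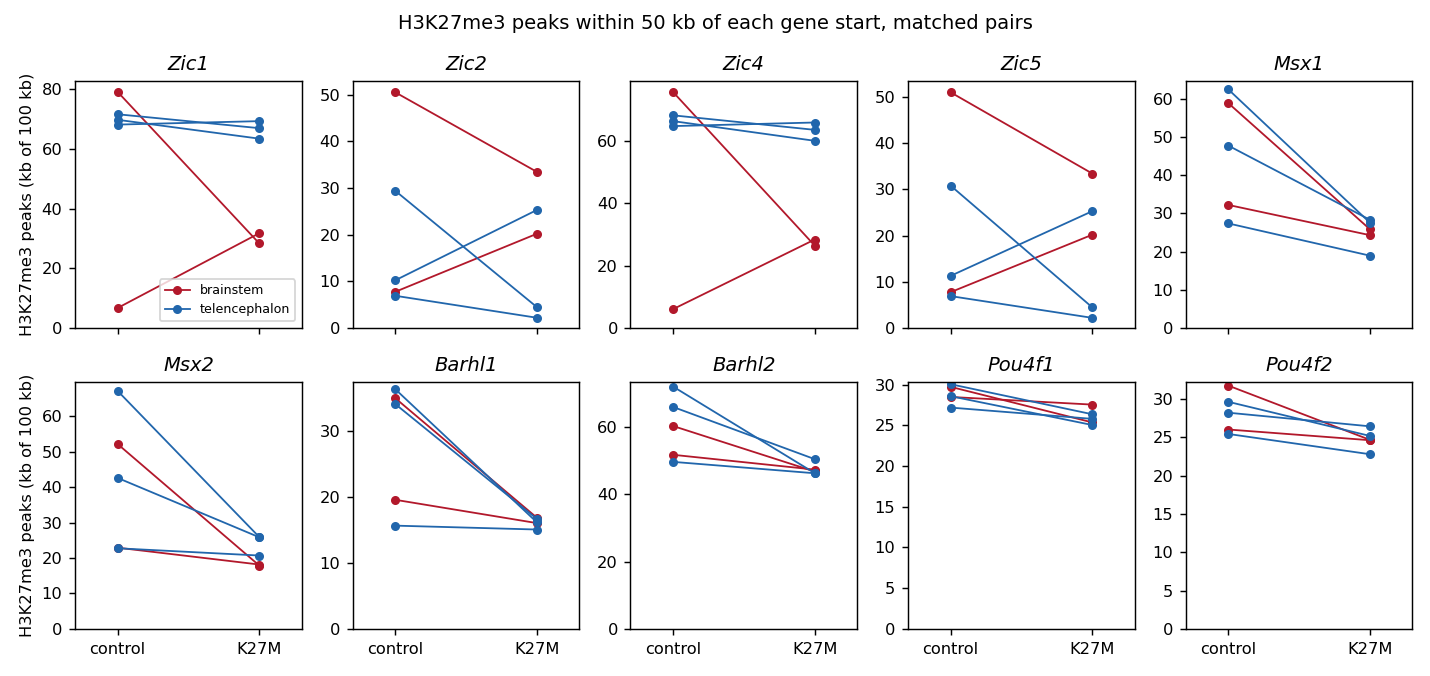
H3K27me3 peaks in kb within the 100 kb around each gene's start (y axis, from 0, scaled per gene), with a line joining the control and K27M culture of each matched pair, red for 2 brainstem pairs and blue for 3 telencephalon pairs. All 5 lines fall at Msx1, Msx2, Barhl1, Barhl2, Pou4f1 and Pou4f2, and lines cross at the Zic genes.

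Set together, H3K27me3 around the start was lower in K27M in every pair at 6 of the 10 members, the Msx, Barhl and Pou4f genes, and at 27.8% of all genes tested. The median difference was -7.24 kb over the members and -2.09 kb over 37507 genes. No gene of the 37507 was under an adjusted p of 0.225 (exact sign-flip test, Benjamini-Hochberg). The member median lies between Zic1 (-7.12 kb) and Zic4 (-7.36 kb), whose means became 3.82 and 3.14 kb without brainstem control 59. Control means at the members ran from 20.9 kb (Zic2) to 59.9 kb (Barhl2), whereas the 37507 genes include any with some coverage. The 2 medians were not scaled to starting coverage. The K27M lists also held fewer peaks. With each list cut to its 4739 strongest peaks, 3 members (Msx1, Msx2 and Barhl1) were lower in every pair, so the count moved with list length. Within 25 kb either side of the start, 4 members (Msx2, Barhl1, Pou4f1 and Pou4f2) were lower in every pair, without Msx1 and Barhl2. Without the pairing, an exact permutation test within regions gave unadjusted p of 0.017 for Pou4f1, 0.033 for Barhl2 and Pou4f2 and 0.05 for Msx1, Msx2 and Barhl1, and of under 0.05 for 20.4% of all genes. The adjusted p were 0.098 to 0.164. On the promoter itself, no member was lower in every pair, against 10.5% of all genes. At Msx2, Barhl1, Barhl2, Pou4f1 and Pou4f2 this measure stood at its ceiling of 100% in all 10 libraries. It cannot show a peak that shrinks outside the promoter windows. A promoter peak in every control was found at 7 members (Zic4 through a peak of 0.528 kb in brainstem control 61), and 6 of them, all but Zic4, kept one in every K27M culture, against 61.4% of the 2964 such genes. In all 10 libraries, an H3K27me3 promoter peak was found at 3.28% of all genes.

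H3K4me3 at the Barhl and Pou4f promoters varied with the library. Pou4f2 had 65.9 and 65.4% of its promoter under H3K4me3 in brainstem controls and 46.8 and 20.9% in brainstem K27M. In the telencephalon, controls 59, 60 and 61 had 9.73, 95.0 and 95.9%, and the matched K27M cultures 0, 33.0 and 41.5%. Every K27M culture was below its matched control, with a mean difference of -38.0 percentage points ± 22.6 (SD; exact sign-flip p = 0.063). In the telencephalon 59 pair this rests on a control peak of 292 bp with a fold enrichment of 1.55. Telencephalon controls 60 and 61 had the highest median H3K4me3 fold enrichments, and their part here was not tested. With −log10 q of at least 3 or equal numbers of peaks, Pou4f2 was no longer lower in every pair. Pou4f1 had 31, 27, 10.9, 55.4 and 53.6% in the controls and 19.9, 12.7, 5.89, 29.2 and 33.4% in K27M, a mean difference of -15.4 points ± 8.16 (exact sign-flip p = 0.063). These 2 were the only members lower in every pair, as were 0.65% of all genes tested, and 63.8% of all genes had a higher mean in K27M.

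Barhl2 and Barhl1 had less H3K4me3. At Barhl2 it covered 32.7, 18.1, 0, 55.7 and 46.5% of the promoter in controls and 11.4, 0, 0, 18.5 and 22.3% in K27M, lower in 4 pairs and equal in the other (mean -20.2 points ± 13.4, SD; exact sign-flip p = 0.125). Barhl1 had H3K4me3 in 3 controls, at 4.43% in brainstem control 59 and 35.3 and 35.7% in telencephalon controls 60 and 61, and in no K27M culture. Both telencephalon controls are the libraries with the highest H3K4me3 fold enrichments, and their part in these differences was not tested. Msx2 had 28.4 and 32% in brainstem controls, 38.8 and 31.9% in brainstem K27M, 0, 33.9 and 35.4% in telencephalon controls and 0, 8.83 and 24.7% in telencephalon K27M. Msx1 and Zic5 ranged from 30.8 to 48.3% and from 19.4 to 28.5%. In all 10 libraries, an H3K4me3 promoter peak was found at 6 members, the 4 Zic genes, Msx1 and Pou4f1, and at 28.7% of all genes. No member's H3K4me3 coverage was without overlap between control regions, where 0.97% of all genes lay above in the telencephalon and 15.8% below.

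**Figure D5:**
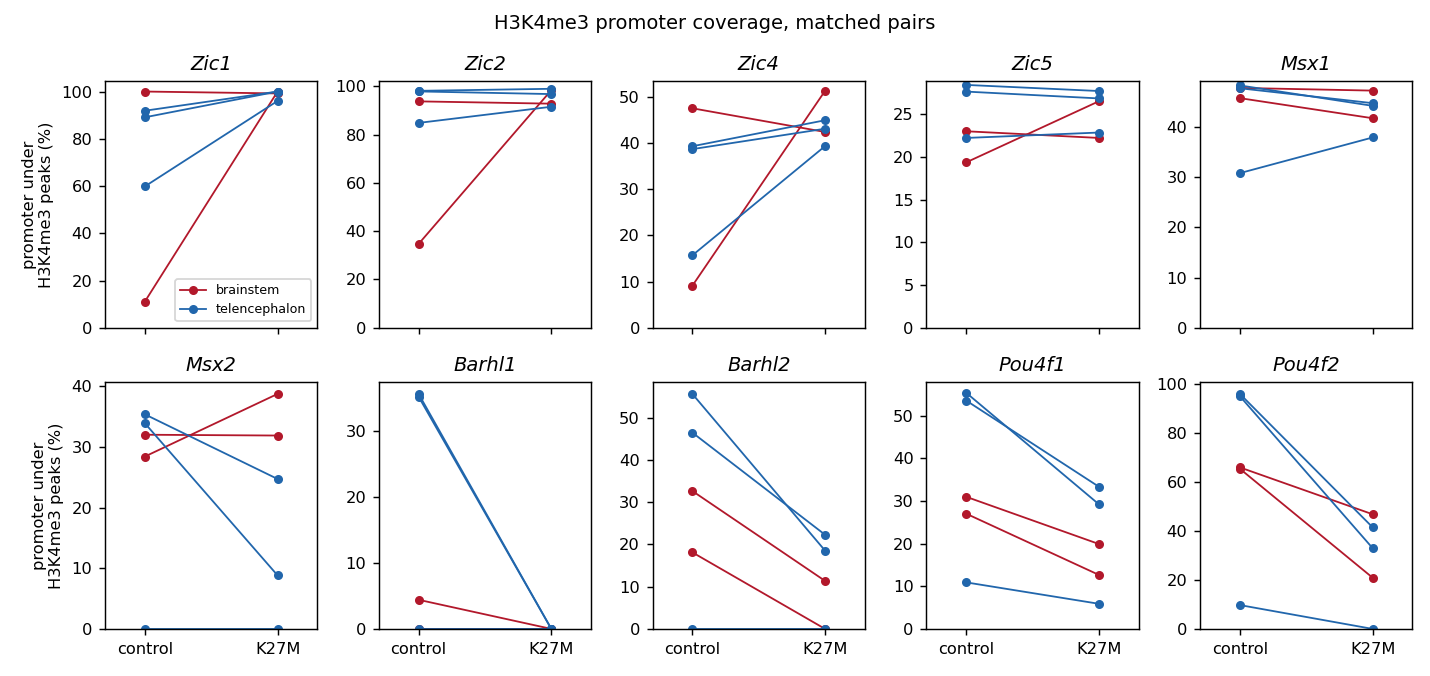
Percent of each gene's promoter windows under H3K4me3 peaks (y axis, from 0, scaled per gene), with a line joining the control and K27M culture of each matched pair, red for 2 brainstem pairs and blue for 3 telencephalon pairs. All 5 lines fall at Pou4f1 and Pou4f2, and most rise at Zic1 and Zic4.

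Peaks of both marks were called at most of these promoters. By the consensus of controls, which keeps a region where overlapping peaks of at least 2 cultures support it, 9 members were bivalent in the brainstem, against 4.6% of all genes, with Barhl1 carrying H3K27me3 alone. In the telencephalon 8 were bivalent, against 7.31% of all genes, with Zic2 and Zic5 carrying H3K4me3 alone. The brainstem calls at Zic1, Zic2 and Zic5 rest on control 59, because control 61 had no H3K27me3 peak on their promoters and supported the long peak of control 59 only elsewhere along its length. When both marks were asked of each of the 2 brainstem controls, 6 members remained, without Zic1, Zic2 and Zic5. Of these 6, Zic4 remained through the 0.528 kb peak of control 61, which lay 14.3 kb from the gene start, and at Zic4 and Msx1 no base of the promoter was under both marks in that library. The telencephalon count rests on controls 60 and 61, since 4 were bivalent, Zic1, Zic4, Msx1 and Pou4f1, without either of them. By culture, both marks lay on 10 and 6 of the promoters in brainstem controls and on 5, 10 and 8 in telencephalon controls. In K27M cultures both were on 7 and 6 in the brainstem and on 4, 7 and 9 in the telencephalon. The share of all genes with both marks was not counted by culture. Genes with an H3K27me3 promoter peak ranged from 2084 in telencephalon K27M 59 to 11215 in telencephalon control 61.

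The peaks were ranked within each library by fold enrichment among all genes with a promoter peak of the mark. The H3K27me3 peaks of Barhl2, Pou4f1, Pou4f2, Barhl1 and Msx2 had median percentiles of 95.2 to 97.3 in controls and of 87.9 to 94.3 in K27M cultures, where fewer genes had a peak. The H3K4me3 peaks of the same 5 genes had median percentiles of 10.4 to 26.1 in the controls with a peak. They were thus among the strongest H3K27me3 promoters and the weaker H3K4me3 promoters of their libraries. High H3K27me3 ranks were not particular to them. In the controls with a peak, the medians were 95.8 at Zic1, 95.9 at Zic4 and 93.8 at Msx1, and 69.2 at Zic2 and Zic5.

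Genes with the most similar pattern were sought by the mean absolute difference in promoter coverage over all 20 libraries. They were Nkx2-1 for Barhl1, at 0.319 percentage points, Foxa1 for Barhl2 at 1.69, Hoxa7 for Msx2 at 2.40, Twist1 for Pou4f1 at 2.81 and Duoxa2 for Pou4f2 at 5.15. Foxc1 was nearest to Msx1 at 8.23 and Nrgn to Zic5 at 9.03. Zic1 and Zic2 had no close match, the nearest genes being Irx5 at 19.1 and Fzd10 at 20.7.

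Among 20 other dorsal neural genes, 16 had an H3K27me3 promoter peak in all 10 libraries and 2 in none, against 3.28 and 74.5% of all genes. Around the start, 11 of the 20 were lower in K27M in every pair and none was higher, against 27.8 and 0.032% of all genes tested. The median difference on the list was -6.87 kb. On this list 11 were bivalent in brainstem controls and 17 in telencephalon controls, against 4.6 and 7.31% of all genes. The medians of the members and of this list were -7.24 and -6.87 kb, against -2.09 kb over all genes. The member median rests on Zic1 and Zic4, whose differences turned positive without brainstem control 59. Starting coverage was not compared between these sets.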

How the data were processed

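Chromatin immunoprecipitation was sequenced from 20 libraries. Per the labels, the authors trimmed reads (Trim Galore 0.6.7), aligned them to mm10 (BWA 0.7.17-r1188) and called peaks against input (MACS2 2.2.7.1) in each library, broad for H3K27me3 and narrow for H3K4me3. The deposited peaks give a fold enrichment ratio and −log10 p and q values; the deposited score column was not used. Input libraries and read depth were not analysed here, so no counting interval was possible; the number of peaks in a list does not measure depth. Fly spike-in chromatin does not enter the peak lists.

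Promoters came from GENCODE M21 (GRCm38), whereas the study used a later release; 0 of 519164 peaks passed a chromosome end of the reference. Promoter coverage is the percent of a gene's windows under merged peaks, with an overlap of at least 1 bp counting as a peak. Locus coverage is kb under peaks within 50 kb either side of the gene start. The consensus combined p-values by Fisher's method (stringent 1e-10 and weak 1e-06 for H3K4me3, 1e-08 and 1e-04 for H3K27me3, at least 2 cultures), after the study's settings.

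K27M and control were compared by a two-sided exact sign-flip test over 5 matched pairs (32 arrangements) and regions by an exact permutation test over 10 splits, with Benjamini-Hochberg adjustment over all genes with a value above 0. The pairing is that of the study's methods. Per those methods, both regions were dissected from litters and pooled by region and genotype, and numbers 59 and 61 occur in both regions. Whether same-numbered cultures of the 2 regions share animals is not stated. Both tests treated them as independent, so their p-values do not allow for a shared origin. Within a region, deviations of the matched K27M and control cultures were also correlated. For H3K27me3 this gave -0.00911 (brainstem) and 0.444, 0.243 and -0.207 (telencephalon 59, 60, 61). For H3K4me3 it gave -0.0658 and 0.632, 0.323 and 0.382. The brainstem values, and that of telencephalon 61 for H3K27me3, were negative, so no shared deviation of matched cultures was seen there. Cultures are pools of animals, and p-values measure the spread between cultures. The members, gene lists and tests were chosen with earlier results of these data known. All 10 members are named, with neighbours under the same H3K27me3 peak in every control and the nearest gene by pattern, which for 1 member is not reported here. Lengths of promoter peaks and coverage outside them were added after the data were seen. Functions were tested on simulated data. Python 3.11.15, numpy 2.4.6, scipy 1.17.1 and matplotlib 3.10.9 were used.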

Additional observations from a re-analysis of the deposited data

How the results depend on the processing

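The 6 members with H3K27me3 on the promoter in all 10 libraries were the same 6 genes under every alternative run. Of 125 counts of members under alternatives, 97 stayed within 1.5 times, and of 470 differences of single members 40 changed sign and 8 moved by over 1 SD; the cause was not tested. With a fold enrichment of at least 3, members with H3K4me3 in all libraries went from 6 to 1, those with lower H3K27me3 around the start in every pair from 6 to 2, those with lower H3K27me3 outside the promoter peaks from 4 to 0, and those with lower H3K4me3 on the promoter from 2 to 0. With −log10 q of at least 3 the last 3 were 3, 2 and 1. With equal numbers of peaks (4739 and 20961 kept) they were 3, 1 and 1, and the 2 members with higher H3K4me3 around the start became 0. The shorter promoter window left 1 member with lower H3K4me3. Within 25 kb either side, lower H3K27me3 around the start held at 4 members, and the differences were -6.37 kb at Msx1 and -1.58 kb at Barhl2.

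Without the replicate block, which asks every K27M culture to lie beyond every control of its region, lower H3K27me3 around the start held at 1 member (Pou4f1), lower H3K4me3 on the promoter at 0 and higher H3K4me3 around the start at 0. The exact permutation test without the block gave no adjusted p under 0.0981 for any gene and measure. Bivalent members in telencephalon controls were 5 when every culture was asked. Leaving out each culture in turn gave 4 to 8 for that count, 6 to 10 for lower H3K27me3 around the start (10 without culture 61), 5 to 6 for lower H3K27me3 outside the promoter peaks (4 with all cultures), 2 to 6 for lower H3K4me3 on the promoter (6 without culture 59), and 2 to 4 for higher H3K4me3 around the start. Members whose control regions did not overlap ranged from 0 to 3 for H3K27me3 and from 0 to 10 for H3K4me3 (3 and 2 without brainstem control 59), and K27M regions from 2 to 4. The brainstem consensus could not be made without culture 59 or 61, which leaves 1 culture. The counts of regions without overlap that leave out culture 59, culture 61 or brainstem control 59 also rest on 1 brainstem culture. Their share over all genes was not counted. Zic4 differed by -7.36 kb around the start, 6.29 kb without culture 59 and 3.14 kb without brainstem control 59.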
